A study of Danio rerio with 10 samples.

Results

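The lysozyme gene lyz and 4 other genes of zebrafish granulocytes, mpx, npsn, mmp9 and mmp13a, were followed in the testes of adult males that had met dioxin early in life. They were taken by gene symbol from the platform's probe table, with the brightest probe over all 10 arrays standing for each gene. Of the 5 genes, 4 were measured among 19260 genes on the array. The remaining one, npsn, was named only by 2 probes that carry several symbols, being shared with npsnl, which may be the same gene. As genes were taken by exact symbol, npsn was not analysed here. The tested fish were wild-type AB males (Danio rerio) that received TCDD (2,3,7,8-tetrachlorodibenzo-p-dioxin, which activates the aryl hydrocarbon receptor) in their water at 50 pg/ml for 1 h, at 3 and at 7 weeks post fertilization. The control males, also wild-type AB, received the solvent DMSO for 1 h at the same ages. From males 1 year old, 5 TCDD and 5 DMSO testis samples were each hybridised to 1 Affymetrix whole-transcript array. The labels call the samples biological replicates and do not say whether a sample held 1 fish or several.

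Granulocytes are the white blood cells that first enter infected or wounded tissue, and in fish they are made in the kidney marrow. Neutrophils, the main kind, carry granules with lysozyme, which cuts the wall of bacteria, and with myeloperoxidase, which makes hypochlorous acid, and they release proteases that open the matrix between cells. In zebrafish lyz and mpx are the usual neutrophil markers, although lyz is also found in some macrophages. In whole testes fewer granulocytes and less RNA per granulocyte cannot be told apart.

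All values below are expression values as the authors deposited them, read as log2 from their range. On that reading 1 unit is a 2-fold step. The values rank arrays for 1 probe but not 1 probe against another. Array medians lay between 6.71 and 6.87, and the number of arrays limits the precision. Testis markers were bright in the series as a whole, with ddx4 of germ cells at the 99.0 percentile of all probes and amh of Sertoli cells at 98.6. Their lowest arrays were at 10.6 for ddx4 and 9.67 for amh. Other testis markers were much lower in their lowest array than on average. insl3 averaged 11.1 with a lowest array of 7.09, dmc1 10.6 with 7.27 and sycp3 10.4 with 7.69. DMSO 1 resembled the other arrays least, at a mean correlation of 0.918, where the rest had 0.952 to 0.961. Markers of tissue outside the testis were higher in some arrays than in others, and where these transcripts came from was not tested. The mean of 17 intestine genes was 10.2 in TCDD 2, 9.40 in TCDD 3 and 10.8 in DMSO 1, against 7.38 or less elsewhere. For 14 exocrine pancreas genes it was 10.9 in TCDD 2, 10.2 in TCDD 4 and 11.8 in DMSO 1, against 9.09 or less elsewhere. The mean of 16 hepatocyte genes was 10.9 in TCDD 5 against 8.72 or less elsewhere, and that of 21 skeletal muscle genes was 7.42 in DMSO 2 and 7.54 in DMSO 3 against 6.85 or less elsewhere.

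Lysozyme was the 1 measured gene of the set whose groups did not overlap. At its brightest probe (13151061) lyz was at 7.02, 7.25, 6.91, 6.83 and 6.76 in TCDD 1 to TCDD 5, against 7.90, 8.24, 7.43, 8.06 and 8.39 in DMSO 1 to DMSO 5. Every TCDD array lay below every DMSO array, the closest being TCDD 2 and DMSO 3. TCDD testes averaged 6.96 ± 0.19 and DMSO testes 8.01 ± 0.37 (SD, 5 arrays each), and the groups differed by -1.05, so that the TCDD level was 0.483 of the DMSO level. The set was chosen by earlier values of this very contrast, in which lyz was low in TCDD, so the lyz difference is given as a description with no test. A complete separation in this direction held for 0.395% of all genes. Left-out arrays moved the difference between -1.19 (without DMSO 3) and -0.95 (without DMSO 5).

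The second lyz probe (13145708), at the 43.6 percentile of all probes, ran the same way by a smaller amount and did not separate the groups. It was at 6.33, 6.30, 6.35, 6.29 and 6.19 in TCDD 1 to TCDD 5, against 6.76, 6.85, 6.52, 6.22 and 6.82 in DMSO 1 to DMSO 5. DMSO 4, the third highest DMSO array at the bright probe, was here among the TCDD values. TCDD testes averaged 6.29 ± 0.06 and DMSO testes 6.63 ± 0.27 (SD, 5 arrays each), and the groups differed by -0.34. With the group means removed, both probes correlated at 0.39 (Spearman 0.58) over the 10 arrays, a description of probes read from the same RNA. With both probes averaged the lyz difference was -0.70.

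**Figure D1:**
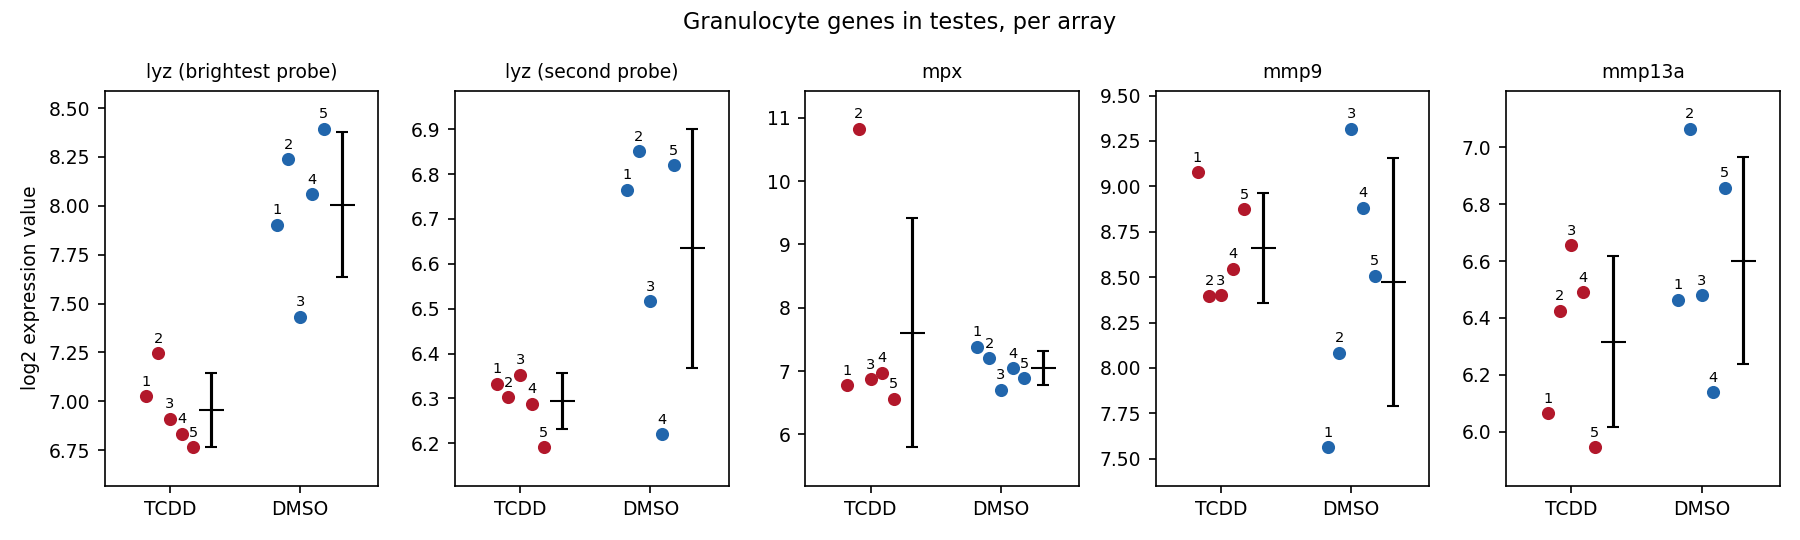
Log2 expression value (vertical axis, own range per panel) of each measured granulocyte gene in TCDD and DMSO testes; points are arrays with their replicate number, and the bar is the mean with its SD (n = 5). lyz at its brightest probe is the panel with no overlap, and TCDD 2 stands alone in mpx at 10.8.

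Myeloperoxidase had overlapping groups and 1 array far above the others. Its values come from 1 probe, as 1 more probe that names mpx carries several symbols and was not used. mpx was at 6.77, 10.83, 6.88, 6.98 and 6.56 in TCDD 1 to TCDD 5, against 7.38, 7.20, 6.71, 7.05 and 6.89 in DMSO 1 to DMSO 5. TCDD 2 was more than 3 log2 units above any other array, and the other TCDD arrays lay within or just below the DMSO range. TCDD testes averaged 7.60 ± 1.81 and DMSO testes 7.05 ± 0.26 (SD, 5 arrays each), and the groups differed by 0.56 (95% CI -1.01 to 2.12, limma adjusted p = 1.00). An exact permutation test over all arrangements of the arrays gave a two-sided p of 0.937. Without TCDD 2 the difference was -0.25 (95% CI -0.61 to 0.11), with 4 of 4 remaining TCDD arrays below the DMSO mean.

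The gelatinase gene mmp9, whose product cuts denatured collagen and is stored in neutrophil granules, had overlapping groups. It was at 9.08, 8.40, 8.40, 8.55 and 8.87 in TCDD 1 to TCDD 5, against 7.56, 8.09, 9.32, 8.88 and 8.51 in DMSO 1 to DMSO 5. The DMSO arrays spanned the TCDD values on both sides. TCDD testes averaged 8.66 ± 0.30 and DMSO testes 8.47 ± 0.68 (SD, 5 arrays each), and the groups differed by 0.19 (95% CI -0.47 to 0.85, limma adjusted p = 1.00, exact permutation p = 0.595, two-sided). Its sign turned without DMSO 1, at -0.040. DMSO 3, which had the least lyz of the DMSO group, had the most mmp9.

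The collagenase gene mmp13a, which zebrafish leukocytes express at wounds, lay on the same side as lyz with overlapping groups. It was at 6.07, 6.43, 6.66, 6.49 and 5.95 in TCDD 1 to TCDD 5, against 6.46, 7.07, 6.48, 6.14 and 6.86 in DMSO 1 to DMSO 5. DMSO 4 was the third lowest of all arrays and TCDD 3 the third highest. TCDD testes averaged 6.32 ± 0.30 and DMSO testes 6.60 ± 0.36 (SD, 5 arrays each), and the groups differed by -0.28 (95% CI -0.73 to 0.16, limma adjusted p = 1.00, exact permutation p = 0.206, two-sided). Without DMSO 2 the difference was -0.17. The probe lay at the 43.5 percentile of all probes.

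Of the 3 genes tested beside lyz, 0 passed an adjusted p of 0.05 in limma, and 0 had an unadjusted p under 0.05. Over all 19260 genes 0 (0%) passed the adjusted threshold, 478 (2.48%) had an unadjusted p under 0.05, of which 324 (1.68%) were lower in TCDD and 154 (0.8%) higher.

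Whether the other genes follow lyz among arrays of 1 group was asked with the group means removed. mpx correlated with lyz at a Pearson r of 0.44 (permutation p = 0.0549, adjusted over 3 genes 0.165) and a Spearman rho of 0.45 (p = 0.116, adjusted 0.348) over 10 arrays, with arrays exchanged within groups in all 14400 ways. mmp9 gave an r of -0.41 (permutation p = 0.3999, adjusted 0.3999) and a rho of -0.31 (p = 0.450, adjusted 0.450). mmp13a gave an r of 0.40 (permutation p = 0.326, adjusted 0.3999) and a rho of 0.36 (p = 0.356, adjusted 0.450). None of these passed. DMSO 2 and DMSO 5, the 2 arrays farthest from the median of lyz over all 10 arrays, were also its 2 highest. Without them r was 0.62 for mpx (adjusted permutation p = 0.121), -0.42 for mmp9 (0.789) and -0.11 for mmp13a (0.789). The mmp13a r changed sign there, and it had not passed with all 10 arrays. Without TCDD 2 r was 0.32 for mpx, and without DMSO 3 it was 0.16 for mmp9. Against the second lyz probe mpx had an r of 0.08 (adjusted permutation p = 0.580) and mmp9 an r of -0.60 (0.349). There mmp13a had an r of 0.75 (adjusted permutation p = 0.0473), which its rho of 0.70 did not match after adjustment (0.147).

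**Figure D2:**
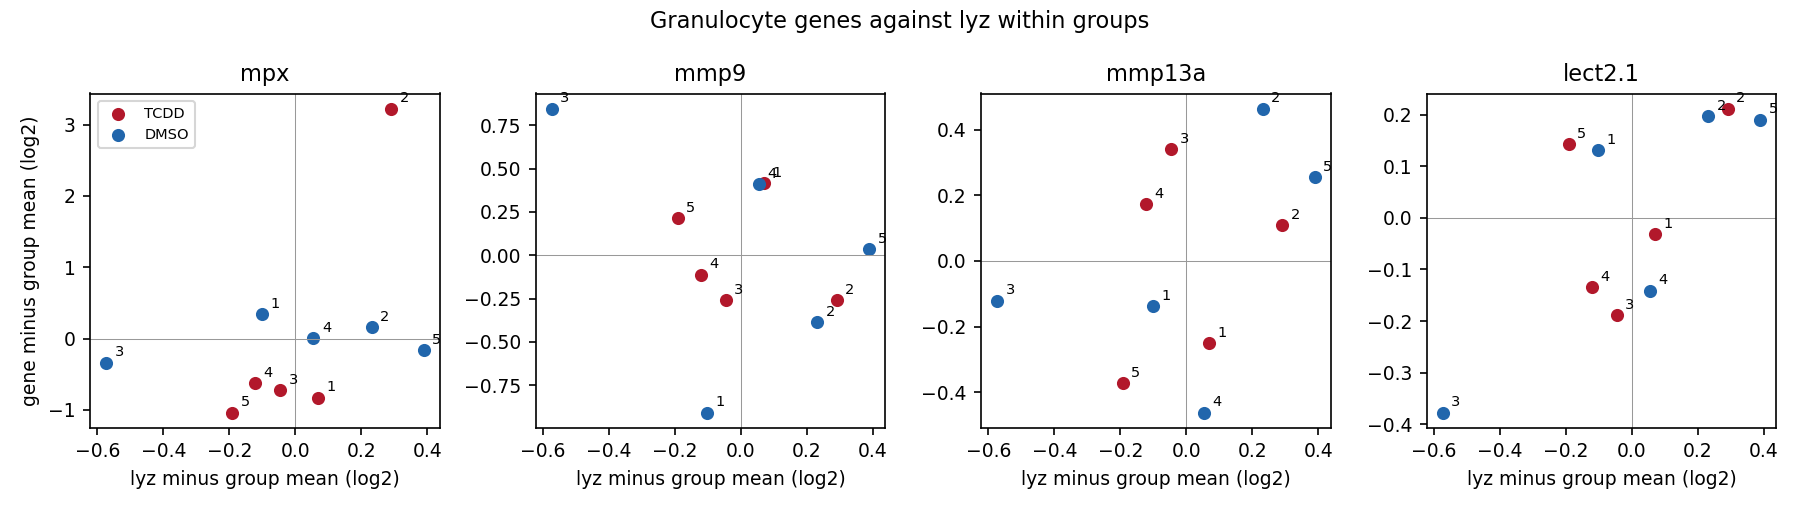
Each gene against lyz, both as log2 values minus the mean of their own group, with 1 point per array and its replicate number (TCDD red, DMSO blue). TCDD 2 lies far above the other arrays for mpx, DMSO 3 lies opposite to lyz for mmp9, and lect2.1 has an r of 0.73.

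The granulocyte gene with the highest correlation to lyz was lect2.1, which encodes a leukocyte-derived chemotaxin. It was at 5.97, 6.22, 5.82, 5.87 and 6.15 in TCDD 1 to TCDD 5, against 6.60, 6.67, 6.09, 6.33 and 6.66 in DMSO 1 to DMSO 5. All 5 TCDD arrays were below the DMSO mean, and DMSO 3, as for lyz, was the lowest DMSO array and lay below TCDD 2 and TCDD 5. TCDD testes averaged 6.004 ± 0.17 and DMSO testes 6.47 ± 0.25 (SD, 5 arrays each), and the groups differed by -0.46 (95% CI -0.78 to -0.14, limma adjusted p = 1.00). The probe was dim, at the 39.0 percentile of all probes. Its r with lyz was 0.73 over 10 arrays with group means removed, and as the highest of 50 measured granulocyte genes it carries no test.

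The genes lect2.2 and lect2.3 of the same family were added after their values had been seen. lect2.2 was at 7.76, 8.18, 7.85, 8.27 and 8.05 in TCDD 1 to TCDD 5, against 8.27, 8.30, 8.18, 8.57 and 8.38 in DMSO 1 to DMSO 5, and the groups differed by -0.32 (95% CI -0.61 to -0.03, limma adjusted p = 1.00). lect2.3 was at 10.85 in TCDD 2, while the remaining 9 arrays ranged from 6.04 to 7.47, and the groups differed by 0.63 (95% CI -1.13 to 2.40, limma adjusted p = 1.00). As for mpx, TCDD 2 alone was at the top.

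**Figure D3:**
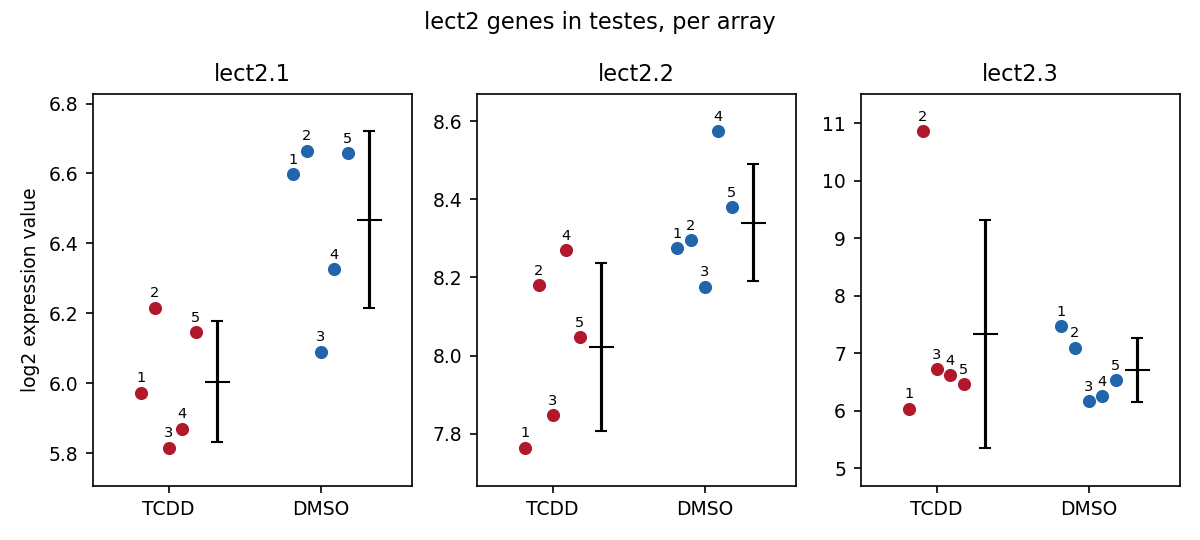
Log2 expression value of the 3 lect2 genes in TCDD and DMSO testes, drawn as points per array with replicate numbers and the mean with its SD (n = 5). lect2.1 and lect2.2 average lower in TCDD with overlapping groups, and TCDD 2 stands alone in lect2.3 at 10.85.

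Genes of neutrophil granules and effector functions lay on both sides of 0. Of 26 measured members 11 were below 0 and 15 above, with a median difference of 0.05, where over all genes 45.4% were below 0 and the median was 0.02. One member, lect2.1, had an unadjusted p under 0.05 in the lower direction and 0 did in the higher, against 1.68% and 0.8% of all genes, and 0 passed the adjusted threshold in limma. ncf1, a cytosolic subunit of the NADPH oxidase that makes superoxide, was at 7.47 to 8.46 (median 7.98) in TCDD and at 7.05 to 8.83 (median 7.91) in DMSO, and the groups differed by 0.05 (95% CI -0.64 to 0.75, limma adjusted p = 1.00). Leaving out single arrays put it between -0.15 (without DMSO 2) and 0.29 (without DMSO 1). cybb, its membrane subunit, differed by 0.10, and srgn, the granule proteoglycan, by 0.18. scpp8 differed by 0.10 and the C-type lectin gene illr4 by -0.22. The list median lay between -0.02 (without TCDD 4) and 0.07 (without DMSO 1) with single arrays left out, and it was -0.0091 with 14 members below 0 and 12 above without both DMSO 2 and DMSO 3.

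Genes that make granulocytes or guide them had a median close to 0 as well, with members from -0.35 (gfi1aa) to 0.58 (cebpd). Of 24 measured transcription factors, growth factors and chemotaxis genes 6 (25%) were below 0 and 18 above, with a median of 0.06, where 45.4% of all genes were below 0. An unadjusted p under 0.05 was reached by 0 of them in either direction (1.68% and 0.8% of all genes). csf3r, the receptor for the granulocyte growth factor, was at 7.27, 7.38, 7.40, 7.71 and 7.55 in TCDD 1 to TCDD 5, against 7.33, 7.23, 7.32, 7.56 and 7.47 in DMSO 1 to DMSO 5. The difference was 0.08 (95% CI -0.18 to 0.34, limma adjusted p = 1.00). spi1b, the myeloid factor Pu.1, differed by 0.06 (95% CI -0.25 to 0.38), cebp1, a factor of neutrophil maturation in zebrafish, by -0.09 (95% CI -0.55 to 0.37) and cxcr4b, which holds neutrophils in the marrow, by 0.16 (95% CI -0.15 to 0.47), each with a limma adjusted p of 1.00. cxcr1 and cxcr2, the receptors for Cxcl8, differed by 0.18 and 0.01. Single left-out arrays turned the sign of spi1b (-0.02 without DMSO 3) and of cebp1 (0.08 without DMSO 5).

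**Figure D4:**
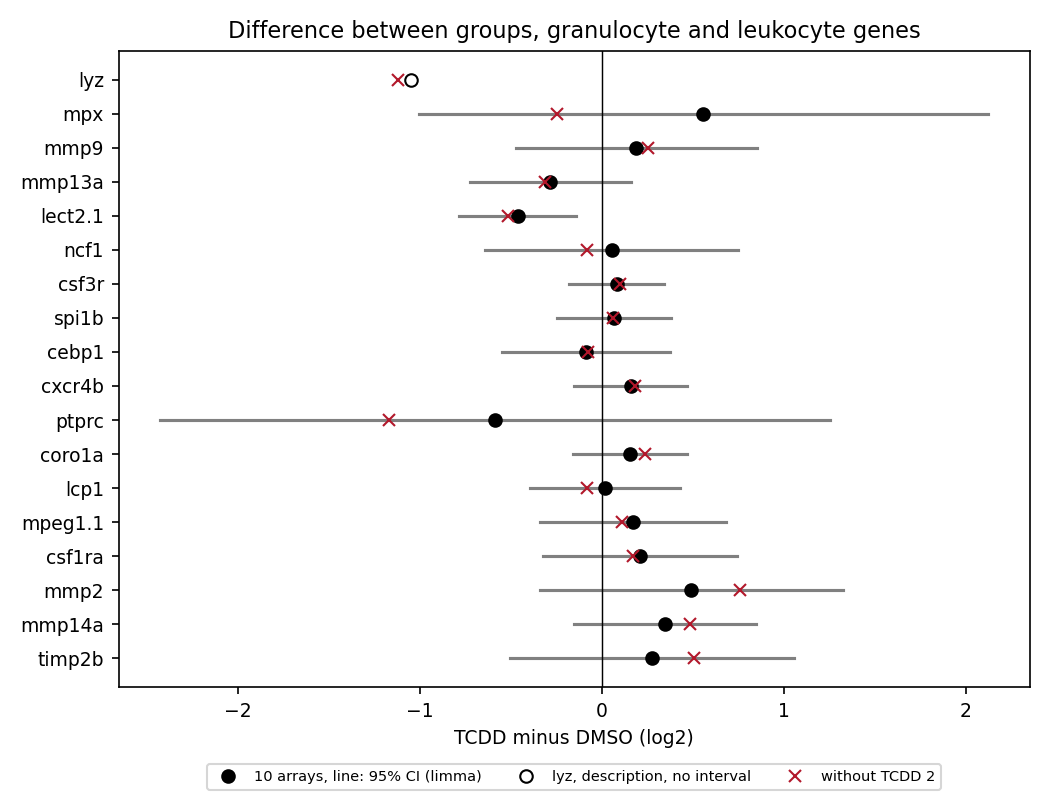
Difference in log2 expression, TCDD minus DMSO, for the 4 measured members and a set of 14 leukocyte and protease genes; filled points have their 95% CI from limma, the open point is lyz, and crosses leave out TCDD 2. Among the genes drawn lect2.1 has an interval that lies off 0, and mpx changes side without TCDD 2.

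Markers of other white blood cells were measured beside these genes. The 18 leukocyte genes shared by lineages had 8 below 0 and a median of 0.02, with a summed level (log2 of the summed linear values) of 11.96 to 12.5 in TCDD and 11.9 to 12.9 in DMSO. coro1a differed by 0.15 (95% CI -0.16 to 0.47) and lcp1, an actin bundler of all leukocytes, by 0.02 (95% CI -0.40 to 0.43, and -0.08 without TCDD 2), both with a limma adjusted p of 1.00. ptprc, which encodes the CD45 phosphatase of white blood cells, was at 6.48, 9.80, 6.58, 7.79 and 6.69 in TCDD 1 to TCDD 5, against 10.35, 8.37, 6.45, 8.61 and 6.52 in DMSO 1 to DMSO 5. Of its arrays 5 lay between 6.45 and 6.69 and the other 5 at 7.79 or above, with both groups in each set, and the difference was -0.59 (95% CI -2.43 to 1.25, limma adjusted p = 1.00). It was -0.02 without DMSO 1 and -1.17 without TCDD 2.

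Of 24 macrophage markers 8 were below 0, with a median of 0.10 and a summed level of 13.3 to 14.1 in TCDD and 13.0 to 14.9 in DMSO. mpeg1.1, the perforin of macrophages, differed by 0.17 (95% CI -0.34 to 0.68) and csf1ra, their growth factor receptor, by 0.21 (95% CI -0.33 to 0.74), each with a limma adjusted p of 1.00. The ligand gene csf1b was the 1 macrophage gene with an unadjusted p under 0.05 in the lower direction (1.68% of all genes), at -0.38 (95% CI -0.73 to -0.02, limma adjusted p = 1.00). The mean over the macrophage list was 8.06 in TCDD 2 and 8.46 in DMSO 1, against 8.03 or less in the other arrays. lyz in DMSO 1 was below that of DMSO 2, DMSO 4 and DMSO 5. Whether macrophages had a part in the lyz values was not tested. Among 24 lymphocyte markers 10 were below 0, with a median of 0.05. The 1 with an unadjusted p under 0.05 was tbx21, a transcription factor of type 1 lymphocytes, at 0.24 (95% CI 0.01 to 0.47, limma adjusted p = 1.00). In this higher direction 0.8% of all genes had such a p. Every TCDD array of tbx21 lay above every DMSO array, which held for 0.0987% of all genes. The groups almost touched, with TCDD 5 at 7.048 and DMSO 3 at 7.044. Among 8 eosinophil and mast cell markers 2 were below 0, with a median of 0.28 (0.11 to 0.31 with single arrays left out). mitfa, also a pigment cell factor, was at -0.29 (95% CI -0.56 to -0.03, limma adjusted p = 1.00). The largest differences of the list were those of rnasel3 at 1.12 and rnasel2 at 1.03. Their unadjusted limma p was 0.129 and 0.140, and the rnasel2 probe was dim, at the 21.5 percentile. The mast cell protease gene cpa5 differed by 0.53 and the peroxidase gene epx by 0.03.

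Relatives of the measured genes were read in the same way. The goose-type lysozyme genes lygl1 and lygl2 differed by -0.03 and 0.22. The peroxidase gene duox differed by 0.01. Of 25 matrix metalloproteinase and inhibitor genes 10 were below 0, with a median of 0.12 (0.036 without DMSO 1), and 1 had an unadjusted p under 0.05 in each direction, against 1.68% of all genes in the lower and 0.8% in the higher one. These were mmp20a, whose mammalian counterpart processes tooth enamel, at -0.35 (95% CI -0.64 to -0.07), and mmp16a, a membrane-bound protease, at 0.29 (95% CI 0.01 to 0.56), both with a limma adjusted p of 1.00. mmp2, the other gelatinase, was at 8.94 to 10.87 (median 10.05) in TCDD and at 8.89 to 10.18 (median 9.62) in DMSO, and the groups differed by 0.49 (95% CI -0.34 to 1.32). mmp14a, which activates pro-Mmp2, differed by 0.35 (95% CI -0.15 to 0.84) and the inhibitor gene timp2b by 0.27 (95% CI -0.51 to 1.06), and the limma adjusted p was 1.00 for all 3. mmp13b, the paralog of mmp13a, differed by -0.09. mmp20b differed by -0.26, with every TCDD array below every DMSO array, as for lyz (0.395% of all genes). Of 15 astacin proteases, the family of npsn, 7 were below 0, with a median of 0.06.

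Antimicrobial and acute phase genes had 14 of 21 members below 0 and a median of -0.09. defbl2, a beta-defensin gene, was at -0.43 (95% CI -0.82 to -0.05), and crp3, of the C-reactive protein family, was at 1.23 (95% CI 0.08 to 2.39), where TCDD 5 at 8.18 was also the array with the highest hepatocyte mean, and crp3 was 0.71 without it. Both had a limma adjusted p of 1.00. Blood was read from 14 erythrocyte markers, of which 4 were below 0, with a median of 0.19 and a summed level of 11.2 to 12.2 in TCDD and 10.9 to 11.8 in DMSO. The 12 kidney tubule markers, for the organ that holds the marrow, had 6 below 0 and a median of -0.01, and the highest list means were 8.45 in TCDD 2 and 8.45 in DMSO 1. All 16 hepatocyte markers were above 0 (median 1.21, and 0.47 without TCDD 5), and c3a.1, of the complement system, fga, fgb and cp had an unadjusted p under 0.05 (0.8% of all genes in that direction). Of 21 skeletal muscle markers 18 were below 0 (median -0.42) and 7 had an unadjusted p under 0.05 in the lower direction (1.68% of all genes), the smallest being those of tnni2a.3, pvalb1, tnnt3b, mybpc2b, pvalb2 and myhz2. The mean over the muscle list was highest in DMSO 2 and DMSO 3, though single genes differed, myhz2 being at 6.35 in DMSO 3, below 4 of 5 TCDD arrays. With both arrays left out 14 of the 21 were below 0, the list median was -0.10 and the lyz difference was -1.16. The median was -0.21 without DMSO 3 alone. Intestine and exocrine pancreas markers had medians of 0.70 and 0.38, with 0 members at an unadjusted p under 0.05. Without TCDD 2 these medians were -0.00070 and -0.035, and without DMSO 1 they were 1.47 and 1.11. Without both TCDD 2 and DMSO 1 the lyz difference was -1.15. As the lyz groups do not overlap, leaving out arrays could not turn its sign. Whether other tissue had a part in the lyz difference was not tested.

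**Figure D5:**
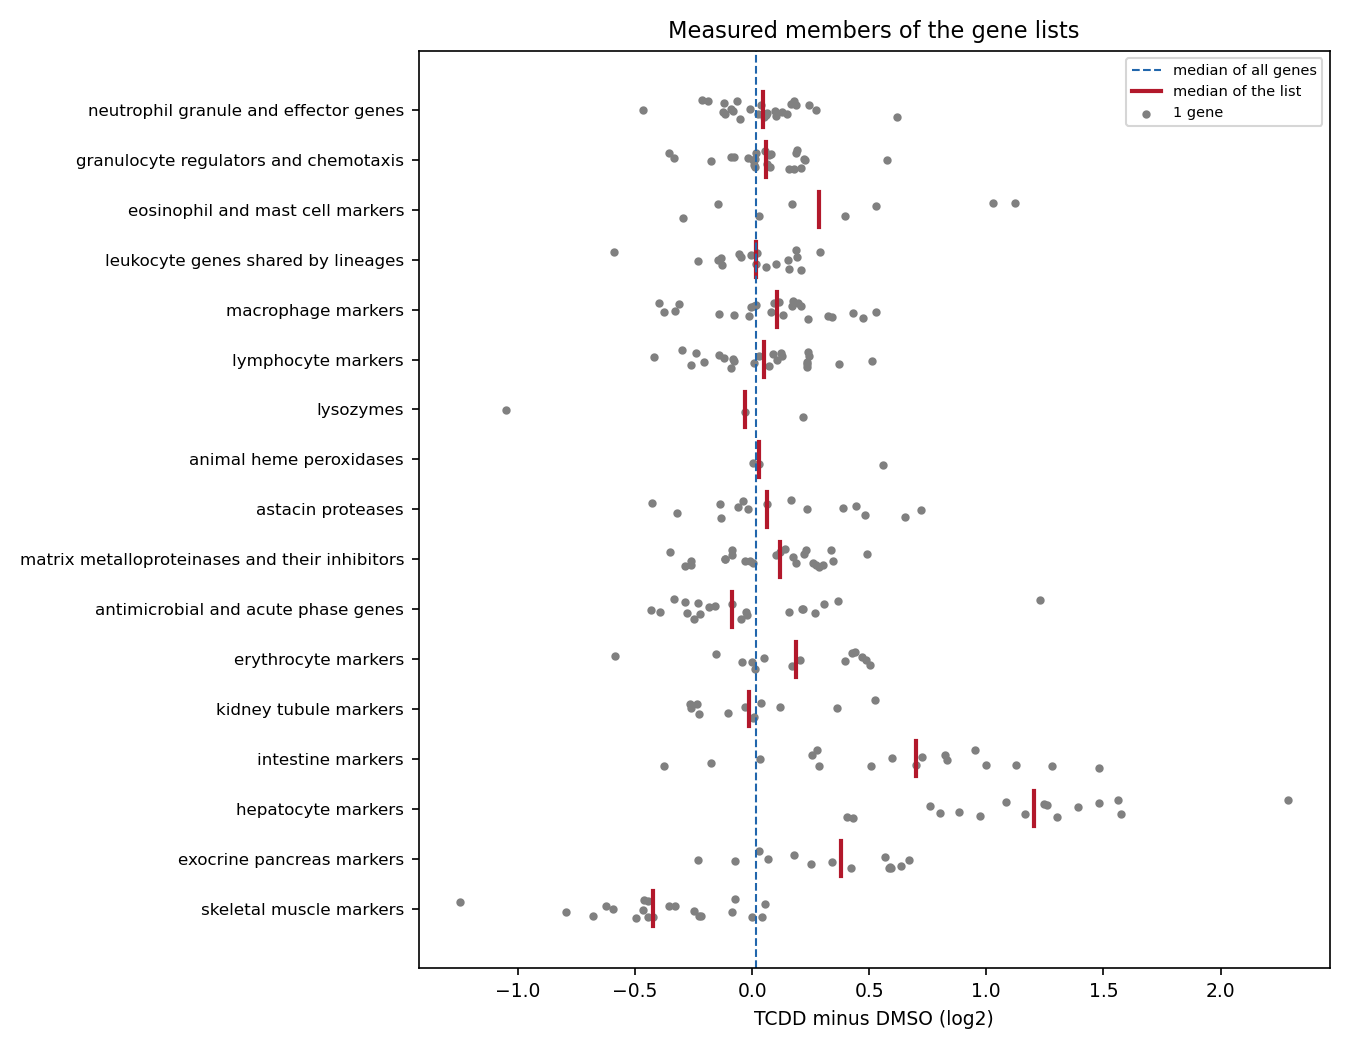
Difference in log2 expression, TCDD minus DMSO, for every measured member of the 17 gene lists, with the list median in red and the median of all genes as a dashed line. Both granulocyte lists have medians near that of all genes, while lyz, in the lysozyme row, stands apart from lygl1 and lygl2.

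The genes most like lyz within groups were sought among 14260 genes brighter than the median probe, without provisional names. They were ranked by the Pearson r of values with the group means removed over 10 arrays. The highest were cbx7a (0.92), of a Polycomb complex, ctslb (0.89), a cathepsin L protease, ggctb (0.88), an enzyme of glutathione breakdown, pde8a (0.85), a cAMP phosphodiesterase, hoxb8b (0.85) and the water channel gene aqp1a.1 (0.84). The lowest were sec62 (-0.96), of protein import into the endoplasmic reticulum, nfe2l1a (-0.96), a factor for proteasome genes, and selenow2a (-0.94). None of the 9 is on a granulocyte list. Over all genes, with no limit on brightness, the highest r was 0.94 for ccl34b.9, a gene with a chemokine symbol. Between groups ctslb differed by -0.60 and ggctb by -0.40, while cbx7a differed by 0.20 and pde8a by 0.13, each with a limma adjusted p of 1.00. The 50 granulocyte genes, also without that limit, had a median r of -0.09 with lyz, from -0.76 for vamp8 to 0.73 for lect2.1. All genes had a median of -0.14. These are descriptions of the most extreme among many genes and share the same 10 arrays.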

How the data were processed

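The deposited values, 1 column per array, were read as log2 expression values made by the authors, from their range of 1.25 to 14.6. Their log base, background correction and normalization are not named in the labels or the file. Each of the 10 columns matched a sample. Of 75212 probes, 20806 carried 1 gene symbol, 855 several and 53551 none. Symbols were set through Entrez identifiers (20323 matched, 1 updated). No gene was named from a probe with several. The brightest probe stood for each gene, which left 19260 genes.

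TCDD and DMSO arrays were compared in limma 3.58.1 (R 4.3.3), by a linear fit with moderated variances and Benjamini-Hochberg adjustment over all genes. Differences are TCDD minus DMSO. The fit was tested on simulated data for this comparison (19260 genes, 200 changed, 5 simulations). It found 61% of the 2-fold and 90.6% of the 4-fold changes, and on average 5.65% of the genes it called had not been changed. Noise was drawn for each gene on its own, without signals shared between genes such as those of other tissue. These shares therefore need not hold for the real arrays.

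Members, gene lists and tests were chosen with earlier results of these data known. Named by rule were the members, a set of 14 leukocyte and protease genes, list genes with an unadjusted p under 0.05 (up to 6 per list) and the genes most and least like lyz. Other genes given as examples of a list were chosen after their values were seen. Listed symbols were matched by name or older name, and fgr, an older name of another gene, was dropped. Alternatives were a block on the replicate number, array weights, limma-trend, median centring, quantile normalization, dim genes below the 40th percentile left out, other probe rules and left-out arrays. Leaving out pairs of arrays, and single arrays for the list medians, was chosen after seeing the data. No sequence table was used here.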

Additional observations from a re-analysis of the deposited data

Results flagged for a closer look

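Among 106 sets of 5 arrays (named genes, the second lyz probe and list means in each group), 10 had 1 array farther from the rest than Dixon's 95% limit for 5 values, where chance flags about 1 in 20. mpx was at 10.8 in TCDD 2, against 6.56 to 6.98 in the other TCDD arrays. The mean of the animal heme peroxidases, which include mpx, was 9.58 in TCDD 2, against 7.57 to 7.82.

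DMSO 1 held 6 of the 10. Its list means were 7.80 for granulocyte transcription factors, growth factors and chemotaxis (7.41 to 7.51 in the other DMSO arrays), 8.37 for leukocyte genes shared by lineages (7.44 to 7.64) and 8.46 for macrophage markers (7.51 to 7.61). They were 8.02 for astacin proteases (6.401 to 6.64), 10.8 for intestine markers (6.49 to 6.74) and 11.8 for exocrine pancreas markers (8.04 to 8.67). lyz in DMSO 1, at 7.90, was inside the range of the other DMSO arrays.

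The acute phase gene crp3 was at 8.18 in TCDD 5, against 5.16 to 5.85 in the other TCDD arrays. The fibrinogen gene fgb was at 8.15 in DMSO 5, against 6.86 to 7.15 in the other DMSO arrays.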

How the results depend on the processing

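With single arrays left out, the count of genes past an adjusted p of 0.05 in limma ranged from 0 to 1, the lyz difference from -1.19 to -0.95, mpx from -0.25 to 0.82, mmp9 from -0.040 to 0.40 and mmp13a from -0.40 to -0.17. The correlations with lyz ranged from 0.32 to 0.56 for mpx, -0.69 to 0.16 for mmp9 and 0.29 to 0.53 for mmp13a. mpx was -0.25 without TCDD 2, mmp9 was -0.040 without DMSO 1, and the mmp9 correlation was 0.16 without DMSO 3. Without both TCDD 2 and DMSO 1 mpx was -0.16. The 1 gene called without TCDD 2 was kcnh1a, a potassium channel gene (1.41, limma adjusted p = 0.0361), and it was also the 1 called without both TCDD 2 and DMSO 1. The lyz difference was -0.70 with its probes averaged. The mmp13a correlation was -0.11 without the 2 arrays farthest from the median of lyz and 0.75 against the second lyz probe. Against that probe the mpx correlation was 0.08 and that of mmp9 -0.60. The cause was not tested.

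The replicate number as a block left 0 genes called (398 at an unadjusted p under 0.05, against 478 without it) and changed no member's call, with mpx at 0.56 (95% CI -0.91 to 2.02). Same-numbered arrays correlated at -0.58 to 0.29 in their deviations, 0 of 5 TCDD arrays were closest to their own number, and the arrays were treated as unpaired. The 478 genes, 154 higher and 324 lower in TCDD, became 1400 with array weights (738 and 662), 1280 without DMSO 1 (704 and 576) and 1190 without both TCDD 2 and DMSO 1 (726 and 464), where most were higher. They became 453 after median centring (225 and 228), 598 without TCDD 2 (270 and 328), 289 without DMSO 2 (95 and 194) and 3793 of 75212 with every probe fitted (775 and 3018). With single arrays left out the median turned its sign for 10 of the 17 lists. Dim probes, such as that of lect2.1, can understate a difference, and whether this one did was not tested.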

Other observations

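Few genes stood as far above all other arrays in TCDD 2 as mpx did. In that array 7 genes lay more than 2 log2 units above every other array, and these were chosen after their values had been seen. cbln7 was at 11.2 against 7.56 or less, mpx at 10.8 against 7.38 or less, and lect2.3 at 10.9 against 7.47 or less. ptchd3l was at 9.42 against 7.37 or less, and the remaining 3 carry provisional clone names. The same measure counted 56 genes in TCDD 5, 35 in DMSO 1, 1 each in TCDD 1, TCDD 3 and TCDD 4, and 0 in each other DMSO array. lyz was the highest of its group in TCDD 2, at 7.25, below every DMSO array. The granulocyte genes ncf1 and csf3r were at 8.46 and 7.38 there, inside the range of the other arrays. For ncf1 this was the highest TCDD value, with DMSO 1 above it at 8.83. The mean of the leukocyte genes shared by lineages was 8.06 in TCDD 2 and 8.37 in DMSO 1, against 7.78 or less elsewhere. That of the neutrophil granule and effector genes was 7.66 in TCDD 2, inside the range of the other arrays. TCDD 2 and DMSO 1 also had the highest list means for intestine markers (10.2 and 10.8) and exocrine pancreas markers (10.9 and 11.8). Whether leukocytes or other tissue had a part in the mpx value was not tested.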
